A study of Danio rerio with 8 samples.

Results

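The comparison of jam3b-sa37 with wild-type (WT) zebrafish (Danio rerio) embryos at 12 hours post-fertilization (hpf) rested on 4 of the 8 libraries of the series, 2 per genotype. Whole embryos were profiled by cap analysis gene expression (CAGE), which captures capped RNAs and counts their 5′ ends, so that each value is the use of a cluster of transcription start sites. The other 4 libraries, of the same genotypes at 16 hpf, served to estimate the spread and as values beside those of 12 hpf. The labels give the genotypes as wild type and jam3b-sa37 without zygosity, strain or number of embryos pooled, and they do not say whether the WT embryos were siblings of the mutants. Nothing in them says that the 2 libraries of a group came from separate clutches, so the spread between these libraries may be technical. The p-values of the main fit measure only what is left of that spread after a shift common to each replicate number is taken out. A difference of the allele and a difference of the stocks behind the 2 genotypes cannot be told apart, and in whole embryos neither can fewer cells of a type and less RNA per cell.

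The gene jam3b encodes a junctional adhesion molecule, a receptor of the immunoglobulin superfamily at contacts between cells. In zebrafish, Jam3b on precursors of fast muscle binds Jam2a on neighbouring precursors, and the pair is needed for these cells to fuse into fibres with many nuclei. At 12 hpf the embryo is in early segmentation, when somites form and the mesoderm that gives rise to blood, vessels, heart and kidney is being laid out. Start clusters come in narrow and broad forms: narrow ones are typical of tissue-restricted promoters, often with a TATA box, and broad ones of widely used genes in CpG-rich DNA.

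The files name each cluster by its position on danRer10, the build in the submitters' processing notes, and give no gene. No annotation or genome sequence of that build was used here, so start regions are given by position and strand, and neither the start site of jam3b nor markers of any tissue were analysed here. The members were chosen by position and level, without regard to genotype. Each replicate number has its own cluster list, and same-strand clusters of the 2 lists that overlapped were merged into 42130 regions. Of these, 23602 had clusters of both lists, and the 18527 with a mean of at least 1 RPM (tags per 1000000 tags) over the 4 libraries were kept. A further 5075 fell under the minimum, 6397 belonged to list 1 alone and 12131 to list 2 alone. The kept regions held 97.8 to 98.8% of the RPM in each library of 12 hpf.

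The minimum split regions of nearly equal level. Just inside it, a region on chromosome 22 at positions 22315687 to 22315740 on the minus strand was at 0 and 1.37 RPM in WT replicates 1 and 2 and at 0.51 and 2.12 in sa37. Just outside, a region on chromosome 17 at positions 53318804 to 53318921 on the plus strand was at 0 and 1.71 in WT and at 0.51 and 1.78 in sa37.

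In their listed clusters the 4 libraries held 11713380 (WT) and 10662458 (sa37) tags in replicate 1, and 22593011 and 16938015 in replicate 2. Below 0.51 to 0.55 RPM a cluster is listed at 0 in replicate 1, whereas replicate 2 reaches down to single tags. Across the kept regions, log2(RPM + 1) correlated between genotypes with r of 0.94 in replicate 1 and 0.95 in replicate 2, and between replicates with 0.92 in WT and 0.91 in sa37. These are descriptions across regions, which share a library.

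At 12 hpf, a minority of start regions differed between the genotypes, some of them by a wide margin. The comparison was paired by cluster list: limma was fitted to log2(RPM + 1) with a mean per group and the replicate number as a block. It called 602 of the 18527 regions (3.25%) at a Benjamini-Hochberg adjusted p under 0.05. Of these, 338 (1.82% of all kept regions) were higher and 264 (1.42%) lower in sa37. The difference had the same sign in both pairs of libraries for each of the 602. The fit averages the 2 pairs and counts their disagreement as error, so the call itself favours this outcome. The absolute size of the difference ranged from 0.72 to 9.97 on the log2 scale, with a median of 1.52 for the higher and 1.44 for the lower regions. The median difference over all kept regions was 0.019. A fitted difference of at least 4-fold was reached by 156 called regions, 90 higher and 66 lower, and 116 called regions differed by under 2-fold.

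The number of calls depended on the fit. Without the block 19 regions were called (0.103%), 12 higher and 7 lower, and all 19 were among the 602. Both fits give a region the same difference and vary only in its error, which favours this overlap. The 4 libraries of 12 hpf alone gave 328 calls with the block, and on recovered tags with the block edgeR gave 266 (1.44%) and DESeq2 1041 (5.62%). With WT replicate 1 left out 130 were called, without WT replicate 2 202, without sa37 replicate 1 128 and without sa37 replicate 2 105, and in these fits the lone library of a group is assumed to vary like the others. An exact permutation test of a single region that ignores the pairs could not fall below p = 0.333 with 2 libraries against 2. Exchange within the pairs leaves fewer arrangements, and so a higher limit. Of the 602, 123 were called in all of limma with the block, limma on the 12 hpf libraries alone, limma with a block of its own in each stage, edgeR and DESeq2. These 123 held 69 higher and 54 lower regions, and 79 of them differed at least 4-fold. All 5 fits had a replicate block and reused the same libraries, so their overlap is no separate check. The fit without the block was not among them.

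The limit of list 1 touched many calls. In 246 of the 602 called regions (40.9%) a replicate 1 library was listed at 0, against 1322 of all kept regions (7.14%). WT replicate 1 was at 0 in 150 of the higher regions, and sa37 replicate 1 in 96 of the lower ones. Among kept regions with no such 0, 356 were called (2.07%), 188 higher and 168 lower. The part of this limit in the calls was not tested.

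The pairs of libraries, which share no library, can be read against each other. At least 2-fold differences occurred in 1543 regions in the replicate 1 pair and in 1202 in the replicate 2 pair. In 552 regions (2.98%) both pairs reached 2-fold in the same direction, 322 higher and 230 lower in sa37, and in 37 they did so in opposite directions. Differences of 4-fold or more were seen in 308 and 346 regions; both pairs reached 4-fold with the same sign in 134 (0.723%) and with opposite signs in 5. Over all kept regions, and as a description, Pearson's r between the 2 differences was 0.5 (Spearman's rho 0.3). Groups that did not overlap, with both sa37 libraries above or below both WT libraries, were found in 527 of the called regions and in 3132 of all kept ones (16.9%).

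**Figure D1:**
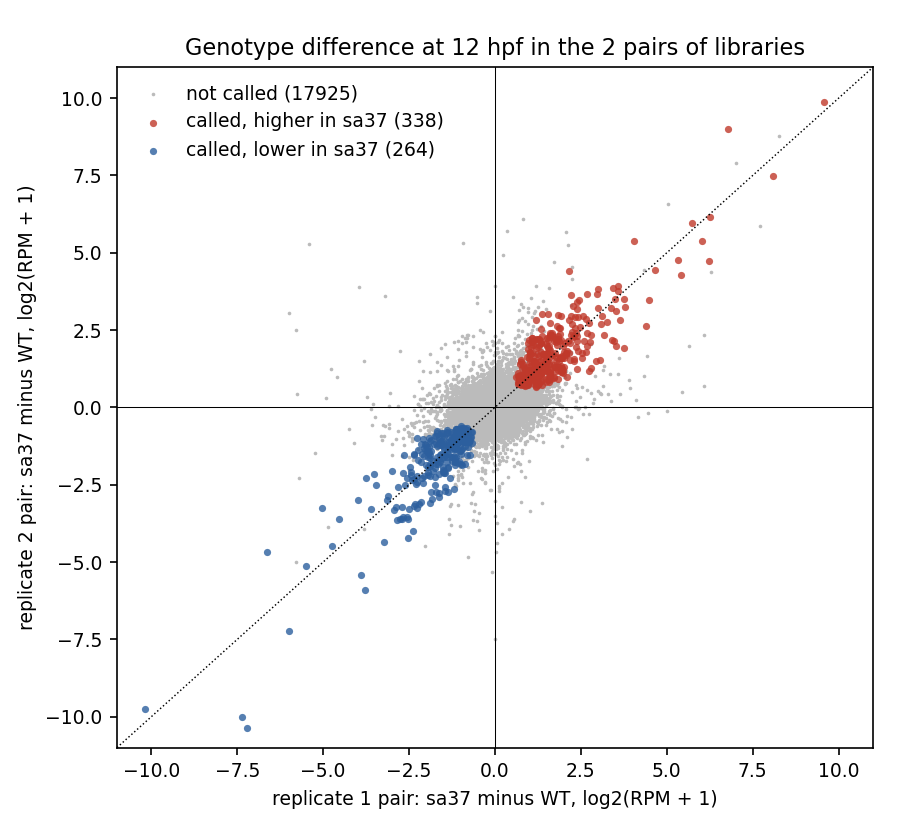
Difference between sa37 and WT on the log2(RPM + 1) scale in the replicate 1 pair (x axis) and the replicate 2 pair (y axis) for each of the 18527 kept regions, with the 338 regions called higher in red, the 264 called lower in blue and the rest in grey. The called regions lie along the diagonal, which the call itself favours, while grey points also lie along the axes, where a single pair differed.

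The 12 regions with the largest higher values in sa37 lay on 10 chromosomes. WT was at 8 RPM or less in 11 of them and at 35.9 and 33.2 RPM in 1 on chromosome 25, while every sa37 library was at 10.65 RPM or more. The fitted difference was 3.99 to 9.71, with SE of 0.14 to 1.12 (limma adjusted p of 2.53e-05 to 0.0486). WT and sa37 libraries did not overlap in any of them, which the choice by largest difference favours. Over all kept regions, the groups did not overlap in 16.9%.

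On chromosome 10, a plus-strand region at positions 24375421 to 24375492 was at 0 and 0.214 RPM in WT replicates 1 and 2, and at 109 and 627 in sa37. The sa37 libraries differed between themselves more than in most of the 12, but both were far above WT (7.90, SE 0.61, limma adjusted p 0.00283). On chromosome 11, a minus-strand region at positions 30863131 to 30863211 was at 0 and 1.67 RPM in WT and at 271 and 478 in sa37 (7.79, SE 0.38, limma adjusted p 0.000541). The nearest called region to it, 4920 bases away on the other strand, at positions 30858177 to 30858211, was higher in sa37 as well: WT was at 2.98 and 0.3 RPM, sa37 at 19.9 and 12.8. Both starts of this neighbourhood were thus more used in the mutant libraries.

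The broad region on chromosome 4 at positions 66306431 to 66306609, on the plus strand, was at 3.69 and 1.11 RPM in WT and at 301 and 87.4 in sa37. Replicate 1 was above replicate 2 in both genotypes, and the 2 pairs gave nearly the same difference (5.70, SE 0.19, limma adjusted p 0.000108). Another called region, 73644 bases away on the same strand, at positions 66232753 to 66232787, was at 0.63 and 0 RPM in WT and at 9.23 and 6.18 in sa37.

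Several of the 12 were listed at 0 in both WT libraries. On chromosome 2, a minus-strand region at positions 2539381 to 2539424 was at 24 and 20.9 RPM in sa37, at least 43.6-fold above the floor of detection in WT (4.55, SE 0.15, limma adjusted p 0.000108). The floor is the larger of 3 tags and the smallest listed value, per library, the bound given is the lower of the 2 pairs, and both cover counting error only. At 29626 bases from it on the same strand, a region at positions 2509704 to 2509755 was lower in sa37, with 37.2 and 36.8 RPM in WT, against 8.63 and 14.5 in sa37. The chromosome 9 region at positions 24891570 to 24891985 on the plus strand was at 41.9 and 18.3 RPM in sa37, at least 76.3-fold above its WT floor. On chromosome 19, the 10-base region at positions 18569888 to 18569898 on the plus strand was at 15.6 and 40.4 RPM in sa37, at least 28.4-fold. These 3 regions separated the genotypes completely, and their level in sa37 was moderate.

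A further pair of starts had a single tag in WT replicate 2 and none listed in replicate 1. On chromosome 1, the region at positions 7236521 to 7236532 on the minus strand was at 0 and 0.043 RPM in WT and at 74.0 and 26.7 in sa37 (5.48, SE 0.85, limma adjusted p 0.0276). On chromosome 17, the region at positions 36602166 to 36602203 on the plus strand was at 0 and 0.043 in WT and at 21.5 and 10.7 in sa37 (3.99, SE 0.27, limma adjusted p 0.00198). A region on chromosome 7 at positions 6302715 to 6302762, minus strand, had higher WT values of 8 and 2.27 RPM against 481 and 201 in sa37, and its error was the largest of the 12 (5.84, SE 1.12, limma adjusted p 0.0486). The other 3 regions lay on chromosome 25. The one at positions 34601787 to 34601808 reached 1585 and 1089 RPM in sa37 against 1.1 and 0.171 in WT, and the one at positions 7539414 to 7539541 had 75.4 and 73.8 against 0 and 0.043. The plus-strand region at positions 34650658 to 34650873 rose from a WT level of 35.9 and 33.2 RPM to 1472 and 920 in sa37 (5.03, SE 0.33, limma adjusted p 0.00187).

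The 12 regions with the largest lower values in sa37 lay on 5 chromosomes and 2 unplaced scaffolds. In 5 of them, all on chromosomes 7 and 25, the WT libraries were at 859 to 2878 RPM, and in the other 7 at 8.61 to 97.9 RPM. The fitted difference was -9.97 to -3.79, with SE of 0.154 to 0.782 (limma adjusted p of 8.02e-06 to 0.0284). In none of them did the genotypes overlap, which the choice by largest difference again favours.

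Among the strongly used 5, the region on chromosome 25 at positions 34638425 to 34638435 on the minus strand was at 2696 and 1326 RPM in WT and at 17.1 and 0 in sa37 (-8.80, SE 0.78, limma adjusted p 0.00478). On the same strand, the region at positions 34602855 to 34602885 was at 2878 and 1739 in WT and at 16.7 and 0.687 in sa37 (-8.68, SE 0.64, limma adjusted p 0.00264). In both, sa37 replicate 1 was above sa37 replicate 2, and both lay far below WT. On chromosome 7, the plus-strand region at positions 73595912 to 73595925 went from 1886 and 1445 RPM in WT to 28.9 and 8.70 in sa37, and the minus-strand region at positions 73628145 to 73628166 from 1974 and 1424 to 132 and 32.4. The minus-strand region at positions 73629474 to 73629491, at 1171 and 859 RPM in WT, was listed at 0 in both sa37 libraries and so at least 2300-fold lower.

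Among the 7 of moderate level, the region on chromosome 12 at positions 16650979 to 16651209 on the plus strand was at 97.9 and 29.3 RPM in WT and at 0 and 0.172 in sa37 (-5.66, SE 0.54, limma adjusted p 0.00577). A second called region 26305 bases away, at positions 16624672 to 16624674 on the minus strand, was lower too, with 2.82 and 5.23 RPM in WT, against 0 and 1.55 in sa37. On scaffold KN150380.1, the region at positions 10432 to 10889 on the minus strand was at 25.9 and 26.4 RPM in WT and at 0 and 0.229 in sa37 (-4.61, SE 0.17, limma adjusted p 0.00017). Its WT libraries were nearly equal, and so were those of chromosome 25 at positions 7484192 to 7484246, at 44.3 and 42.3 RPM against 0 and 0.229 in sa37.

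A pair of starts on chromosome 8 stood beside a neighbour with the opposite sign. The plus-strand region at positions 24376864 to 24377208 was at 12.8 and 59.5 RPM in WT and listed at 0 in both sa37 libraries, at least 25.1-fold lower (-4.85, SE 0.60, limma adjusted p 0.0129). At 2528 bases from it, a minus-strand region at positions 24379736 to 24379776 was at 13.6 and 7.84 RPM in WT and at 126 and 67.1 in sa37 (3.03, SE 0.47, limma adjusted p 0.026). The minus-strand region at positions 23172697 to 23172961 was at 13.3 and 22.7 RPM in WT and at 0.51 and 0.172 in sa37 (-3.79, SE 0.37, limma adjusted p 0.00661). Its plus-strand called neighbour, 1104 bases away, at positions 23174065 to 23174069, was at 0 and 4.16 RPM in WT and at 2.48 and 19.8 in sa37, so that the groups overlapped there although both pairs rose. In both places a start on one strand was less used and a start on the other strand more used in sa37.

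The remaining 2 regions were very narrow and listed at 0 in both sa37 libraries. On chromosome 1, the minus-strand region at positions 16239862 to 16239865 was at 31.9 and 8.61 RPM in WT, at least 50.1-fold above the floor. On scaffold KN149704.1, the minus-strand region at positions 8703 to 8707 was at 22.1 and 11.3 RPM in WT, at least 43.4-fold. The limma adjusted p was 0.0264 for the former and 0.0284 for the latter, and without the block 0.334 and 0.166. On recovered tags with the block, the scaffold region was called by neither edgeR (adjusted p 0.18) nor DESeq2 (adjusted p 0.24).

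Without the block, 12 of these 24 regions were still called (limma adjusted p of 0.000279 to 0.0457) and the other 12 were not (0.0756 to 0.626). Leaving out 1 library at a time kept 17 to 19 of the 24 above the threshold, and edgeR with the block called 19. Of the 24, 16 had another called region within 100000 bases, in 6 cases with the same sign and in 10 with the opposite one. Some were each other's nearest called neighbour, such as those from 34601787 and 34602855 on chromosome 25, and were counted from both sides. No such share over all called regions is given here, so the split is a description.

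**Figure D2:**
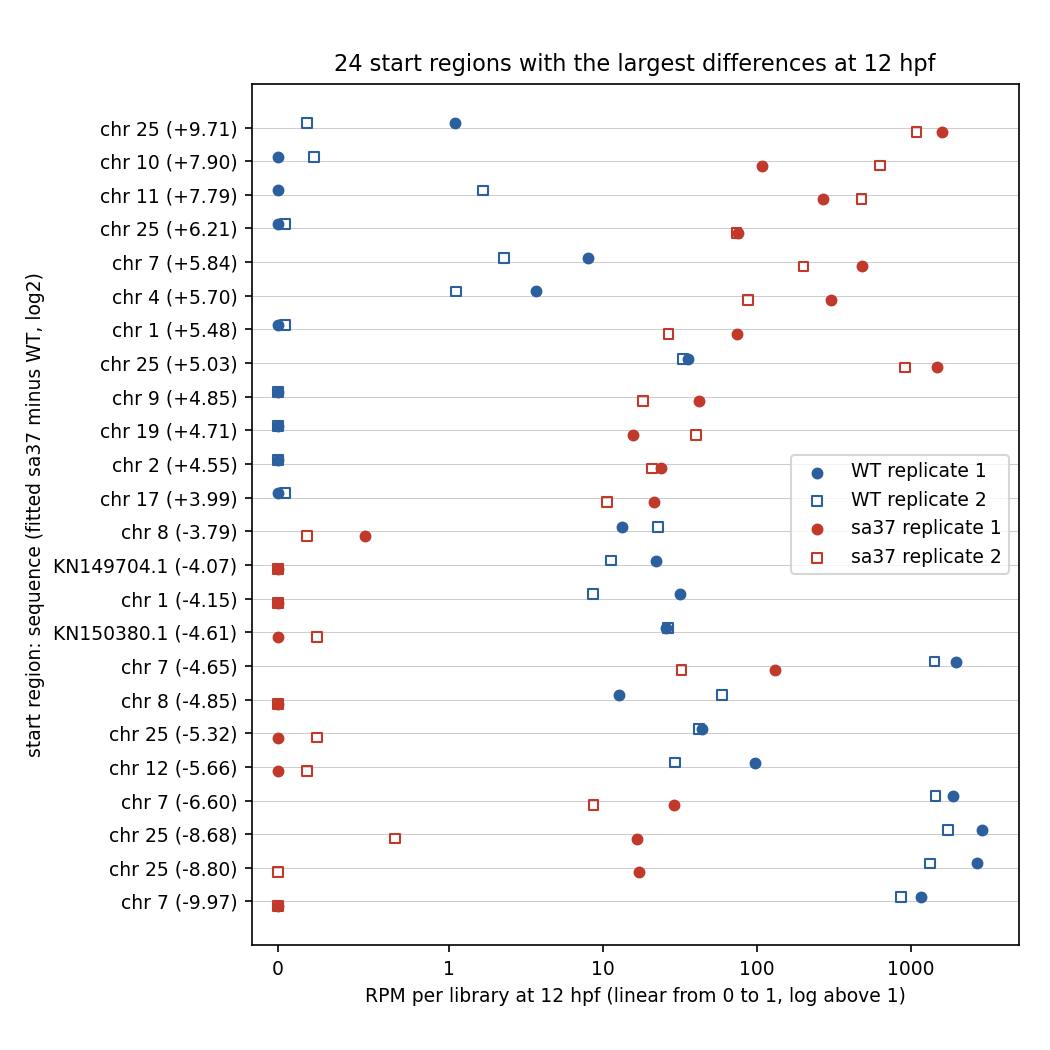
RPM in each library of 12 hpf (x axis, linear from 0 to 1 and logarithmic above) for the 24 called regions with the largest differences, 12 per direction, labelled by chromosome or scaffold with the fitted difference; filled circles are replicate 1 and open squares replicate 2. WT (blue) and sa37 (red) do not overlap in any row, which the choice by largest difference favours.

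A stricter view asked which starts were present in one genotype only. With bounds of under 0.5 RPM in both libraries of a genotype and at least 5 RPM in both of the other, 20 of the 18527 regions (0.108%) were present in sa37 only and 13 (0.0702%) in WT only. Their levels in the genotype that used them ran from 5.04 to 627 RPM for sa37 and from 5.41 to 1171 RPM for WT. Of the 33, 27 were also called by limma with the block, against 3.25% of all kept regions. The bounds were set on the same libraries, so these calls are no separate support. In replicate 1, under 0.5 RPM means listed at 0. Of the 33, 18 were listed at 0 in both libraries of the other genotype. The 20 sa37 starts were spread over 17 chromosomes or scaffolds and the 13 WT starts over 12.

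Several of the 33 lay below the level of the 24. On chromosome 21, a plus-strand region at positions 2480184 to 2480227 was at 10.9 and 14.2 RPM in sa37 and listed at 0 in both WT libraries, at least 19.7-fold. On scaffold KN150065.1, a minus-strand region at positions 617 to 700 was at 9.82 and 13.6 RPM in sa37 and at 0 in WT, at least 17.9-fold. On chromosome 17, a plus-strand region at positions 29892734 to 29892796 was at 7.61 and 6.34 RPM in WT and at 0 in both sa37 libraries, at least 14.9-fold. These 3 examples, and those of the same kind given below for other regions of the 33, were chosen after their values were seen.

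Of the 33, 6 were not called. The spread is estimated over all 8 libraries, and in several of these the 16 hpf libraries of a genotype differed widely. On chromosome 7, a plus-strand region at positions 5842644 to 5842657 was at 0 and 0.129 RPM in WT at 12 hpf and at 305 and 490 in sa37. At 16 hpf WT was at 150 RPM in replicate 1 and 0.21 in replicate 2, and sa37 at 321 and 394. The WT libraries thus stood apart from each other at 16 hpf, and the fit gave 8.51 (SE 1.78, limma adjusted p 0.0621). WT replicate 1 at 16 hpf was also far above replicate 2 from 5846573 on chromosome 7 (121 against 0.042 RPM). The same held from 52864116 on chromosome 9 (12.5 against 0.168) and from 3671 on scaffold KN150127.1 (282 against 0.21). On chromosome 11 from 12287431, WT replicate 1 was below replicate 2 instead, at 0 against 7.65. The cause was not tested. On chromosome 10, a plus-strand region at positions 11558674 to 11559033 was at 54.6 and 31.02 RPM in WT, against 0 in sa37 at 12 hpf, but sa37 replicate 2 reached 54.9 at 16 hpf.

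Called regions with the highest mean level were also described. The 5 called lower regions with the highest mean all lay on chromosomes 7 and 25. The largest, on chromosome 25 at positions 34642743 to 34642773 on the minus strand, was at 5847 and 3026 RPM in WT and at 2975 and 1202 in sa37, so that the groups did not overlap but the higher sa37 and the lower WT library were close (-1.15, SE 0.16, limma adjusted p 0.0177). On chromosome 7, the plus-strand region at positions 5786434 to 5786469 was at 2538 and 1420 RPM in WT and at 686 and 666 in sa37 (-1.49, SE 0.26, limma adjusted p 0.0376). The 3 minus-strand regions that start at 6289734, 6330315 and 6334602 on chromosome 7 had differences of -0.88, -1.39 and -1.24. At 6289734 the genotypes overlapped, with 2938 and 927 RPM in WT against 1778 and 449 in sa37. At 6330315 and 6334602 they did not. Without the block, the limma adjusted p was 1 for these 3 and for the chromosome 25 region, and 0.561 for the region from 5786434. With the 12 hpf libraries alone and the block, none of the 5 was called (limma adjusted p of 0.0569 to 0.156).

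Of the 5 called higher regions with the highest mean, 3 lay near each other on chromosome 7. The minus-strand region at positions 73592107 to 73592177 was at 1302 and 567 RPM in WT and at 2719 and 2189 in sa37 (1.5, SE 0.23, limma adjusted p 0.0269). The minus-strand region at positions 73632934 to 73632969 was at 729 and 423 in WT and at 1591 and 1207 in sa37, and the plus-strand region at positions 73600315 to 73600338 at 444 and 313 in WT and at 1169 and 947 in sa37. In all 3 both sa37 libraries were above both WT libraries. Without the block, the limma adjusted p was 0.951, 0.799 and 0.436 in the order given. With the 12 hpf libraries alone and the block, the limma adjusted p was 0.0755, 0.0598 and 0.0365.

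In sum over all called regions, the lower ones held 4.54 and 3.14% of the RPM in WT replicates 1 and 2 and 1.47 and 0.93% in sa37. The higher ones held 0.405 and 0.346% in WT and 1.53 and 1.46% in sa37. Since the regions were called on these libraries, the shares are a description.

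The share of regions called changed with level and with width. It was 5.22% at 1 to 2 RPM, 4.39% at 2 to 5, 2.89% at 5 to 20 and 1.34% at 20 to 100, and 2.81% at 100 RPM or more, against 3.25% of all kept regions. The median called region had a mean of 4.04 RPM, and the median kept region 7.93. Of the 32 called regions at 100 RPM or more, 22 lay on chromosomes 7 and 25. These chromosomes held 1022 and 586 of the 18527 kept regions of any level. Their share of the 1139 kept regions at 100 RPM or more is not given here, so the count of 22 is a description.

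Narrow regions were called more often than broad ones. Of the 1342 regions under 20 bases, 116 were called (8.64%), and the share went down step by step to 73 of the 4180 regions of 200 bases or more (1.75%). Without chromosomes 7 and 25 the same shares were 8.06% and 1.77%. Within the level class of 5 to 20 RPM, 10.4% of the regions under 20 bases and 2.48% of those of 200 bases or more were called. In the class of 20 to 100 RPM the shares were 3.39% (4 of 118) and 1.11% (13 of 1169), and 2 of those 4 lay on chromosomes 7 and 25. At 100 RPM or more they were 6.9% (8 of 116) and 0.312% (1 of 321), and all of these calls lay on the same chromosomes. Higher and lower calls were close in number among the narrow regions, with 61 and 55. Width here is that of the merged region, which depends on both cluster lists, and the part of that in the shares was not tested.

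**Figure D3:**
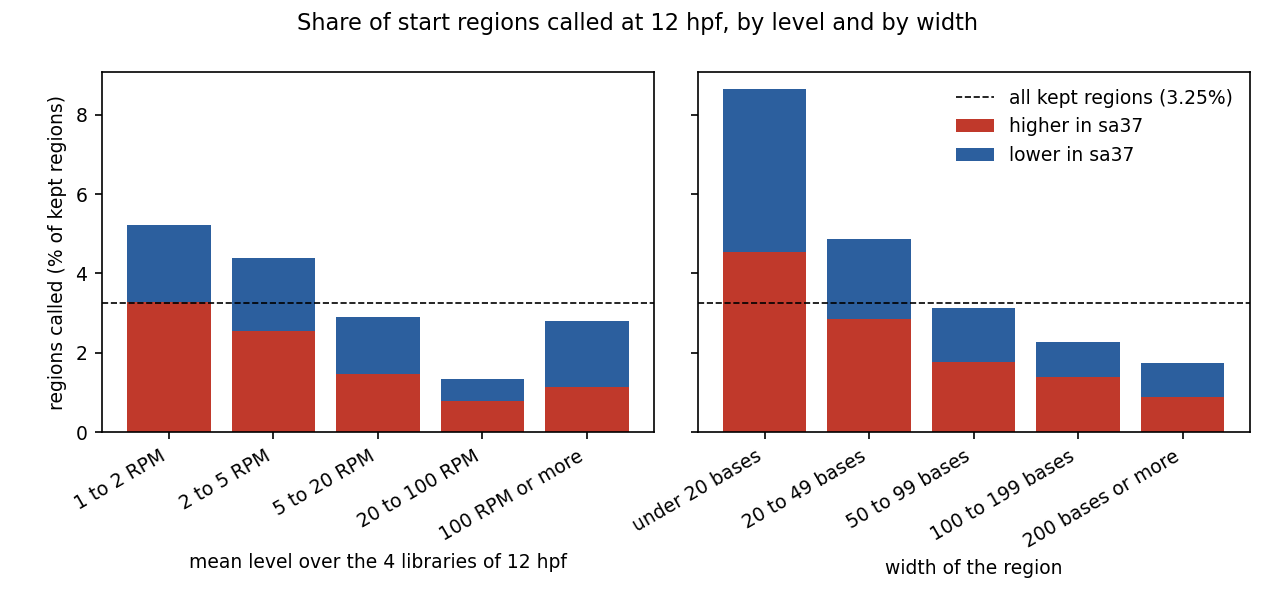
Share of kept regions called at 12 hpf (y axis, percent) by mean level over the 4 libraries (left) and by width of the region (right), with the part higher in sa37 in red and the part lower in blue. The dashed line is the 3.25% of all kept regions; the share falls with width from 8.64 to 1.75%.

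Called regions were found on all 25 chromosomes. The share ran from 1.78% on chromosome 16 (15 of 845) to 5.87% on chromosome 4 (50 of 852), and it was 6.67% on scaffolds and other sequences (18 of 270). On chromosome 4, 35 of the 50 were higher in sa37, and on chromosome 9, 21 of 26. On chromosome 12, 14 of 20 were lower. No test of these shares was made.

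**Figure D4:**
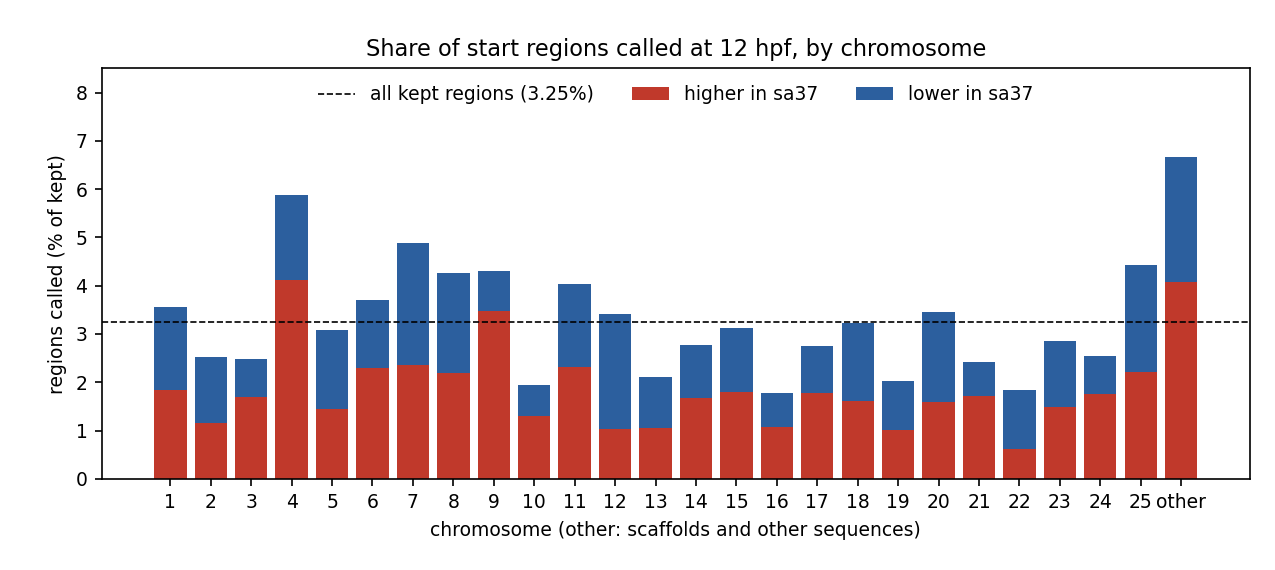
Share of kept regions called at 12 hpf (y axis, percent) on each chromosome and on other sequences (x axis), higher in sa37 in red and lower in blue, with the 3.25% of all kept regions as a dashed line. Chromosome 4 and the other sequences have the tallest bars, at 5.87 and 6.67%.

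Called regions were spread over much of the genome. Of 1332 windows of 1 Mb on the chromosomes with a kept region, 403 held a called one, 287 of them exactly 1 and 31 at least 3. The windows with the most calls were those from 73 to 74 Mb (13 of 39) and from 6 to 7 Mb (11 of 72) on chromosome 7 and from 34 to 35 Mb on chromosome 25 (7 of 91). Without these 3 windows, which were set apart after the values were seen, 571 of 18325 regions were called (3.12%).

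In the window from 73 to 74 Mb on chromosome 7, single starts differed widely, and the sum over the window less. The 39 kept regions added up to 23866 and 17891 RPM in WT and to 21092 and 15306 in sa37, which is -0.18 and -0.23 on the log2 scale in the 2 pairs. The same held in the window of chromosome 25, with 81780 and 65550.2 RPM in WT, against 72401 and 54379 in sa37 (-0.18 and -0.27). In the window from 6 to 7 Mb on chromosome 7, with 2 calls higher and 9 lower, the sums differed by -0.29 and -0.28. The sums include regions that were not called, so they were bound to differ less than starts picked for their differences. Whether starts made up for each other was not tested.

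Smaller groups of calls lay elsewhere. On chromosome 5 from 68 to 69 Mb, 6 of 31 regions were called, 4 higher and 2 lower. The clearest, a plus-strand region at positions 68889528 to 68889639, was at 0 and 0.771 RPM in WT and at 12.5 and 19.1 in sa37 (3.63, SE 0.16, limma adjusted p 0.0004). Further along the same strand, a region at positions 68896116 to 68896155 was at 1.88 and 2.79 in WT and 0 in both sa37 libraries. On chromosome 4 from 30 to 31 Mb all 4 called regions of 15 were higher in sa37, and on chromosome 3 from 6 to 7 Mb all 4 of 17. In each of these called regions WT replicate 1 was listed at 0, and the part of the limit of list 1 in them was not tested. In the window after it on chromosome 3, from 7 to 8 Mb, 2 were higher and 3 lower of 25. The lower ones included a minus-strand region at positions 7244134 to 7244217 with 10.4 and 11.8 RPM in WT, against 0.6 and 1.15 in sa37 (-2.70, SE 0.20, limma adjusted p 0.0026). These windows and the regions in them were picked after their values were seen, so the counts are no test. Windows with as many calls that are not described include chromosome 6 from 29 to 30 Mb (3 higher and 2 lower of 28). Others are chromosome 11 from 2 to 3 Mb (4 higher of 41) and from 11 to 12 Mb (3 higher and 1 lower of 28), and chromosome 4 from 5 to 6 Mb (3 higher and 1 lower of 35).

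Of the kept regions there were 3690 same-strand pairs within 2000 bases. In 12 of them both members were called, 8 with the same sign and 4 with opposite signs. In 155 pairs a single member was called. The other member had the same sign in 93 and the opposite sign in 62, and its median difference in the direction of the call was 0.13, against at least 0.72 for the called member. Regions with a same-strand neighbour within 2000 bases were called in 2.26% of cases and those without in 3.49%. Among 552 pairs on opposite strands within 500 bases no pair had both members called, and in 20 a single member was. In those 20 the other member had the same sign in 10 and the opposite sign in 10.

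The 4 opposite same-strand pairs all lay in the windows of chromosomes 7 and 25 with many calls. In the largest, the 2 minus-strand starts on chromosome 25 lay 1047 bases apart. The one from 34601787 was near 0 in WT and at 1585 and 1089 RPM in sa37, and the one from 34602855 was high in WT and low in sa37, as given above. Their sum was 2879 and 1739 RPM in WT, against 1601 and 1090 in sa37, so that the total was lower but differed far less than either start. The pair was picked for its opposite signs, which favours this, and whether the starts made up for each other was not tested. On chromosome 7, the minus-strand regions at positions 73590819 to 73590837 and at positions 73592107 to 73592177 lay 1270 bases apart. The former was at 1957 and 1463 RPM in WT and at 799 and 482 in sa37, the latter higher as given above, and their sum was 3259 and 2031 in WT and 3518 and 2671 in sa37. A small start at positions 73590718 to 73590729, at 4.78 and 17.9 RPM in WT, against 0 in sa37, made a further pair with the latter. The sum of that pair rose from 1307 and 585 RPM in WT to 2719 and 2189 in sa37. In the remaining pair, the large plus-strand start from 73595912 was lower. A 3-base start 1120 bases before it (73594789 to 73594792) was at 0.94 and 0.6 RPM in WT, against 5.55 and 2.98 in sa37. The sum of the remaining pair fell from 1887 and 1445 RPM in WT to 34.4 and 11.7 in sa37. The sums of these last pairs thus moved with their larger start.

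The 16 hpf libraries give the same comparison at a later stage. Of the 602 regions called at 12 hpf, 587 had the same sign at 16 hpf and 15 the other. The 16 hpf libraries also entered the spread used for these calls, so the count is no independent check. The same share over all kept regions is not given here. At 16 hpf 367 of the same 18527 regions (1.98%) were called, and 273 were called at both stages, which is 45.3% of the calls at 12 hpf and 74.4% of those at 16 hpf, all with the same sign. The median size in the direction of the call was 1.48 at 12 hpf and 1.05 at 16 hpf. The regions were selected on their difference at 12 hpf, so these medians are a description. The 329 regions called at 12 but not at 16 hpf had a median of 1.23 at 12 hpf and 0.62 at 16 hpf in the same direction.

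The interaction of genotype and stage tested whether the difference itself changed. No region was called, 0 of 18527 with the block and 0 without it, and the smallest limma adjusted p with the block was 0.951. With limma and the block, 845 regions were at an unadjusted p under 0.05, of which 168 were among the 602. The 602 were picked by their difference at 12 hpf, which is part of the interaction, so the count of 168 is no test. No difference at 12 hpf was thus shown to change by 16 hpf.

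Among the 24 largest, 20 were called at 16 hpf too, 10 in each direction, against 1.98% of all kept regions and 45.3% of the 602. The 24 were picked by their size at 12 hpf, and both stages share the estimated spread. The count is thus no independent check. Of the higher ones, the region on chromosome 7 at 6302715 was not: WT was at 122 and 1.85 RPM at 16 hpf and sa37 at 217 and 192 (3.45, limma adjusted p 0.223). Nor was the one on chromosome 1 at 7236521, with WT at 18.4 and 0.084 RPM and sa37 at 70.5 and 23.2 (3.18, limma adjusted p 0.16). In both, WT replicate 1 was far above WT replicate 2 at 16 hpf, although it was at 8 and 0 RPM at 12 hpf. The regions on chromosomes 9 and 19 kept their direction with lower levels. The former went from 41.9 and 18.3 RPM at 12 hpf to 7.17 and 3.53 at 16 hpf in sa37, and the latter from 15.6 and 40.4 to 4.80 and 7.23, with WT at 0 throughout. The chromosome 10 region went from 109 and 627 RPM to 36.0 and 172. Of the lower ones, the call was lost for the region on chromosome 1 at 16239862, with 23.9 and 3.15 RPM in WT and 0 in sa37 at 16 hpf (-3.35, limma adjusted p 0.066). It was lost as well on scaffold KN149704.1, where the region went in WT from 22.1 and 11.3 RPM to 0 and 3.45, and its difference at 16 hpf was -1.08 (limma adjusted p 0.502). The interaction passed in none of these (smallest limma adjusted p 0.951 over the higher and 0.981 over the lower 12).

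Of the 33 starts present in one genotype only at 12 hpf, 13 met the same bounds at 16 hpf, 9 in sa37 and 4 in WT. The chromosome 3 region at positions 6150497 to 6150507 on the plus strand was an even case, with 10.9 and 12.5 RPM in sa37 at 12 hpf, 11.3 and 11.4 at 16 hpf and 0 in all 4 WT libraries. On chromosome 22, the minus-strand region at positions 27759616 to 27759665 was its counterpart, with 5.41 and 10.6 RPM in WT at 12 hpf, 10.2 and 13.2 at 16 hpf and 0 in all 4 sa37 libraries.

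**Figure D5:**
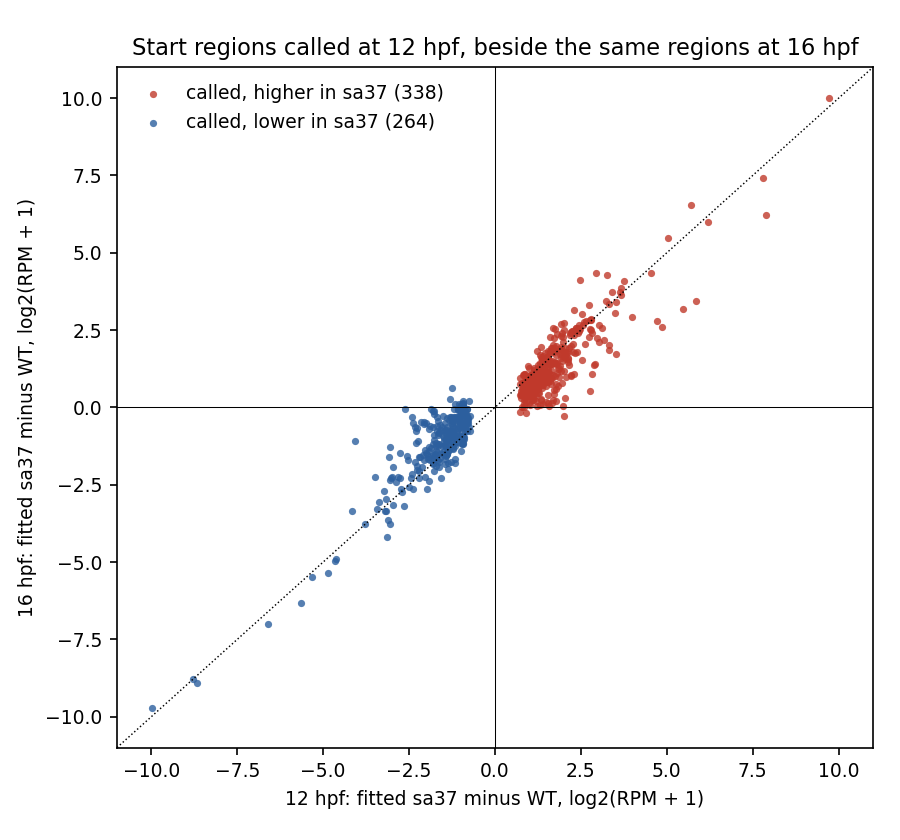
Fitted difference between sa37 and WT on the log2(RPM + 1) scale at 12 hpf (x axis) and at 16 hpf (y axis) for the 602 regions called at 12 hpf, higher in red and lower in blue, with the line of equal values dotted. Of the points, 587 keep their sign and 15 lie across the horizontal line at 0.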

How the data were processed

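Each deposited file gives 1 RPM value per tag cluster of 1 library; the authors' steps named in the submitters' processing notes are BWA, HISAT2 and the build danRer10, with no order, and the clustering and the tag totals are not given in the sources used here. The list 2 columns add up to 1000000 within rounding and the list 1 columns to 936556 to 945905. Repeated rows (412 in list 1, 796 in list 2) were dropped. Values up to 100 tags were whole multiples of 1 tag within 0.1 tag in 100% of cases, so tag counts were recovered; intervals and floors cover counting error only.

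Because the unit is RPM, the main test was limma 3.58.1 in R 4.3.3 on log2(RPM + 1), all 8 libraries, 4 group means plus the replicate number as a block, 3 residual degrees of freedom, two-sided, adjusted over 18527 regions. Fold changes are on the log2(RPM + 1) scale, which understates low regions. The replicate number, taken from titles, also marks the cluster list, and the comparison was defined as paired by that list. Replicate differences correlated with r of 0.68 to 0.84 between groups. Since the lists differ in their lower limit, this correlation cannot show that the samples themselves were paired. EdgeR 4.0.16 and DESeq2 1.42.0 were run on recovered tags as alternatives. The code was tested on simulated data.

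Regions named were the 12 per direction with the largest difference, the 5 with the highest mean, the nearest called neighbour within 100000 bases of the former, opposite same-strand pairs, and single-list regions present in one genotype; others are marked as chosen after seeing values. The members, bounds and lists were chosen with earlier results of these data known. Lists of genes could not be used, since no annotation of the build was used here.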

Additional observations from a re-analysis of the deposited data

Results flagged for a closer look

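Regions with clusters of a single list entered no comparison, and 73 of them were under 0.5 RPM in one genotype and at 5 or more in the other at 12 hpf, with 1 library per genotype and hence no replicate check. In list 1 alone there were 32 such regions in sa37 and 30 in WT, of which 4 and 7 did the same at 16 hpf; in list 2 alone there were 5 and 6, of which 1 and 4 did. The strongest in sa37 were on chromosome 4 at positions 76323933 to 76323936 (101.06 RPM) and at positions 76323560 to 76323567 (42.71 RPM), both in list 1, on the plus strand and listed at 0 in the other 3 libraries of that list, and on scaffold KN150127.1 at positions 6402 to 6667 (52.96 RPM), where WT reached 82.1 RPM at 16 hpf. The strongest in WT was on scaffold KN149696.1 at positions 169296 to 169298 in list 2, with 189.764 RPM against 0.172 in sa37. At 16 hpf that region was at 152 RPM in WT, against 160 in sa37, so that the sa37 library of 12 hpf stood alone. In list 1, a region on chromosome 2 at positions 14997847 to 14997873 was at 177.92 RPM in WT at 12 hpf and listed at 0 in the other 3 libraries, and a region on chromosome 7 at positions 21570524 to 21570535 was at 132.91 RPM in WT at 12 hpf, 294 in WT at 16 hpf and 0 in both sa37 libraries.

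Among the 602 called regions, 10 had both pairs on one side at 12 hpf and both on the other at 16 hpf. The interaction (16 minus 12 hpf) was 1.02 for chromosome 1 from 53409698, 1.59 for chromosome 13 from 44860302, 1.88 for chromosome 14 from 16815966, 1.13 for chromosome 16 from 16614037 and 1.28 for chromosome 16 from 51390404. It was 0.95 for chromosome 19 from 9021019 and 1.07 for scaffold KN150034.1 from 1157. For chromosome 17 from 1673686 it was -0.86, for chromosome 17 from 22082950 -2.28 and for chromosome 8 from 6989444 -1.11. None passed the interaction test (limma adjusted p 0.951 or more in all 10), and they were picked out of 602 by their signs. The region on chromosome 16 at positions 51390404 to 51390583 had the highest level, with 34.7 and 71.6 RPM in WT, against 13.8 and 34.0 in sa37 at 12 hpf, and 24.6 and 60.6 in WT and 26.8 and 65.8 in sa37 at 16 hpf.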

How the results depend on the processing

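The count of 602 called regions moved by more than 1.5 times under several settings. The fit with no replicate block gave 19 (661 at an unadjusted p under 0.05, against 3458 in the paired fit), a block of its own in each stage 290, the 12 hpf libraries alone 328, a pseudocount of 0.1 214 and a minimum of 5 RPM 346. On recovered tags, edgeR gave 266, edgeR with DESeq2's size factors 268 and DESeq2 1041. Leaving out 1 library at a time gave 105 to 202. For all of these the cause was not tested, beyond the smaller number of regions or libraries in some of them. No filter (547), quantile normalization (601), RPM over shared regions, an intensity trend (780), values below 0.5 RPM set to 0, clusters merged within 100 bases and single best matching clusters kept the count within 1.5 times. The share of higher calls was 51.5 to 67.2% over all settings, against 56.1%; 67.2% was reached without sa37 replicate 1. No direction of the 41 named regions reversed in the 19 alternatives, except that 3 of them were under the minimum of 5 RPM and so had no value in that one. The 41 were picked as called with the same sign in both pairs, and several of the fits give the same difference by design. The lack of reversals was thus favoured in advance and is no separate check. Of the 41, 12 stayed called with no replicate block, 20 with a pseudocount of 0.1, 17 to 22 with 1 library left out and 28 or more in the other settings. Starts present in one genotype numbered 113 with a bound of 2 RPM in place of 5, a bound chosen after seeing the data, against 33. In list 1 the smallest listed value was 0.51 to 0.55 RPM in libraries of 10662458 to 15830713 tags, so lower levels cannot be read there, whereas list 2 gives values down to a single tag.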

Other observations

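A stretch of chromosome 9, picked after its values were seen, held 14 plus-strand regions between 24890569 and 24899246. Of these, 2 had clusters of both lists, 11 of list 1 alone and 1 of list 2 alone, and each was listed at 0 in the WT libraries of both stages of the lists that hold it. In sa37 at 12 hpf the largest were the called region described above, from 24891570 to 24891985, at 41.9 and 18.3 RPM, and a region of list 1 alone from 24897129 to 24897595, at 27.1 RPM. Smaller ones in list 1 were at 9.65 RPM (24892272 to 24892405), 8.8 (24899217 to 24899246), 5.72 (24893099 to 24893178) and 5.13 (24898397 to 24898406). The region from 24899217 was also covered by list 2, at 0.344 RPM in sa37. At 16 hpf the 2 largest were at 7.17 and 3.06 RPM in sa37 replicate 1.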
